A study of Homo sapiens with 8 samples.

Results

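The genes described here encode the nuclear subunits of the mitochondrial respiratory chain and of the ATP synthase. They were taken by present symbol: those starting with NDUFA, NDUFB, NDUFC, NDUFS or NDUFV, SDHA to SDHD, UQCR, COX4 to COX8 or ATP5. CYC1 and CYCS were added and the NDUFAF assembly factors left out. Former symbols were used only for ATP5, NDUFA4 and NDUFA4L2. Another 3 genes that met the rule only by an alias were left out. The rule took 92 genes. Of 91 that enter the counts here, 67 were read by at least 1 array probe that was detected, among 7737 detected genes with a name. Their levels were compared between human cells with a hairpin that lowers ZNF395, a zinc finger transcription factor (shZNF395), and cells with a control hairpin (shControl). Of the 67 genes, 33 (49.3%) were higher and 5 (7.46%) lower in shZNF395, beside 25.3% higher and 30.0% lower of all detected probes. In either direction, 55.4% of all detected probes were called. The changes of the 67 genes were small, between -0.40 and 0.64 on the log2 scale. Complex IV held 10 of the rises, or 7 to 9 with any 1 array left out. COX5B of this complex rose by 0.64, while COX8A fell by 0.39.

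All 8 samples were MDA-LM2-shTARBP2 cells, a lung-metastatic derivative of the breast cancer line MDA-MB-231 in which a hairpin also targets TARBP2, an RNA-binding partner of Dicer. Every sample, control or not, therefore carried the TARBP2 hairpin. A second lentiviral hairpin, against ZNF395 or control, was added to 4 samples each, the cells were selected for it, and total RNA was taken at 48 h for Illumina Expression BeadChips. The study's design text calls the control cells mock-transfected, and the labels call them shControl. The labels do not say that the replicates were separate cultures or different hairpins, so the p-values rest on the spread among these arrays alone, and that spread may be technical.

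Complex I takes electrons from NADH and complex II from succinate, and both pass them to ubiquinone. Complex III hands them on to cytochrome c, and complex IV uses them to reduce oxygen. Complexes I, III and IV pump protons across the inner membrane, and the ATP synthase, also called complex V, lets the protons back through its membrane ring to make ATP. In each complex a few core or catalytic subunits carry the cofactors or the active sites, and many smaller nuclear-encoded subunits are needed for assembly, stability or regulation. The subunits encoded by mitochondrial DNA fall outside the rule.

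Arrays were alike in brightness, with median raw signals from 53.2 to 57.1, and each detected 16476 to 17406 of the 47323 probes at a detection p under 0.01. No arrays held identical values, and the lowest correlation within a group across probes (r = 0.9931) was above the highest between groups (r = 0.9745). ZNF395 itself fell from a mean log2 signal of 9.89 ± 0.12 (SD, n = 4) to 9.08 ± 0.096 (SD, n = 4), a change of -0.80 (limma adjusted p = 1.01e-05). TARBP2 rose by 0.21 (adjusted p = 0.0193). CD44, KRT8 and EGFR, which MDA-MB-231 expresses, were detected on every array, while both KRT18 probes were detected on 0 arrays and VIM and CAV1 were not paired with a probe. Among genes listed as low or absent in the line, ESR1, PGR, CDH1 and GATA3 were detected on 0 arrays. ERBB3, on the same list, was detected on 1 shControl and 4 shZNF395 arrays. Its change was 0.33 on a dim probe kept through the group where it is high. Of markers of other cell types, PTPRC, TYROBP, ITGAM, CDH5, VWF and COL3A1 were detected on 0 arrays. CD14, LAPTM5 and COL1A1 were detected on all 8 arrays, and PECAM1 on 2 control and 4 shZNF395 arrays. Of these 4 markers, CD14 (1.45), PECAM1 (0.36) and COL1A1 (0.29) were higher in shZNF395, and LAPTM5 (0.16) did not pass. The PECAM1 probe was dim and kept mainly through the group where it is high, and its groups overlapped. Of the line's own markers, KRT8 was higher by 0.90 and EGFR by 0.24, and CD44 (0.06) did not pass. The part of these markers in the results was not tested.

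A change here is the difference of mean normalized log2 signal, shZNF395 minus shControl, fitted with limma, and a gene passed at a Benjamini-Hochberg adjusted p under 0.05 over all 17184 detected probes. A gene with several probes was read by its brightest. Of all detected probes, 55.4% passed, 25.3% higher and 30.0% lower, with a median change of -0.05. Among the 67 respiratory chain and ATP synthase genes, 33 (49.3%) were higher, 5 (7.46%) lower and 29 did not pass. Across all detected genes with a name, read by brightest probe, the median change was -0.00, and that of the 67 genes was 0.17. Because these genes are bright, they were also set beside the 1665 detected probes at least as bright as their median gene, of which 22.8% were higher and 25.9% lower, with a median change of -0.03. The median absolute change was 0.23 for the 67 genes, 0.26 for all detected probes and 0.18 for the bright probes. The groups of 4 arrays did not overlap for 36 of the 67 genes, beside 49.0% of all detected probes. A changed RNA level per cell and a changed share of cells of a given state cannot be told apart in these bulk samples.

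**Figure D1:**
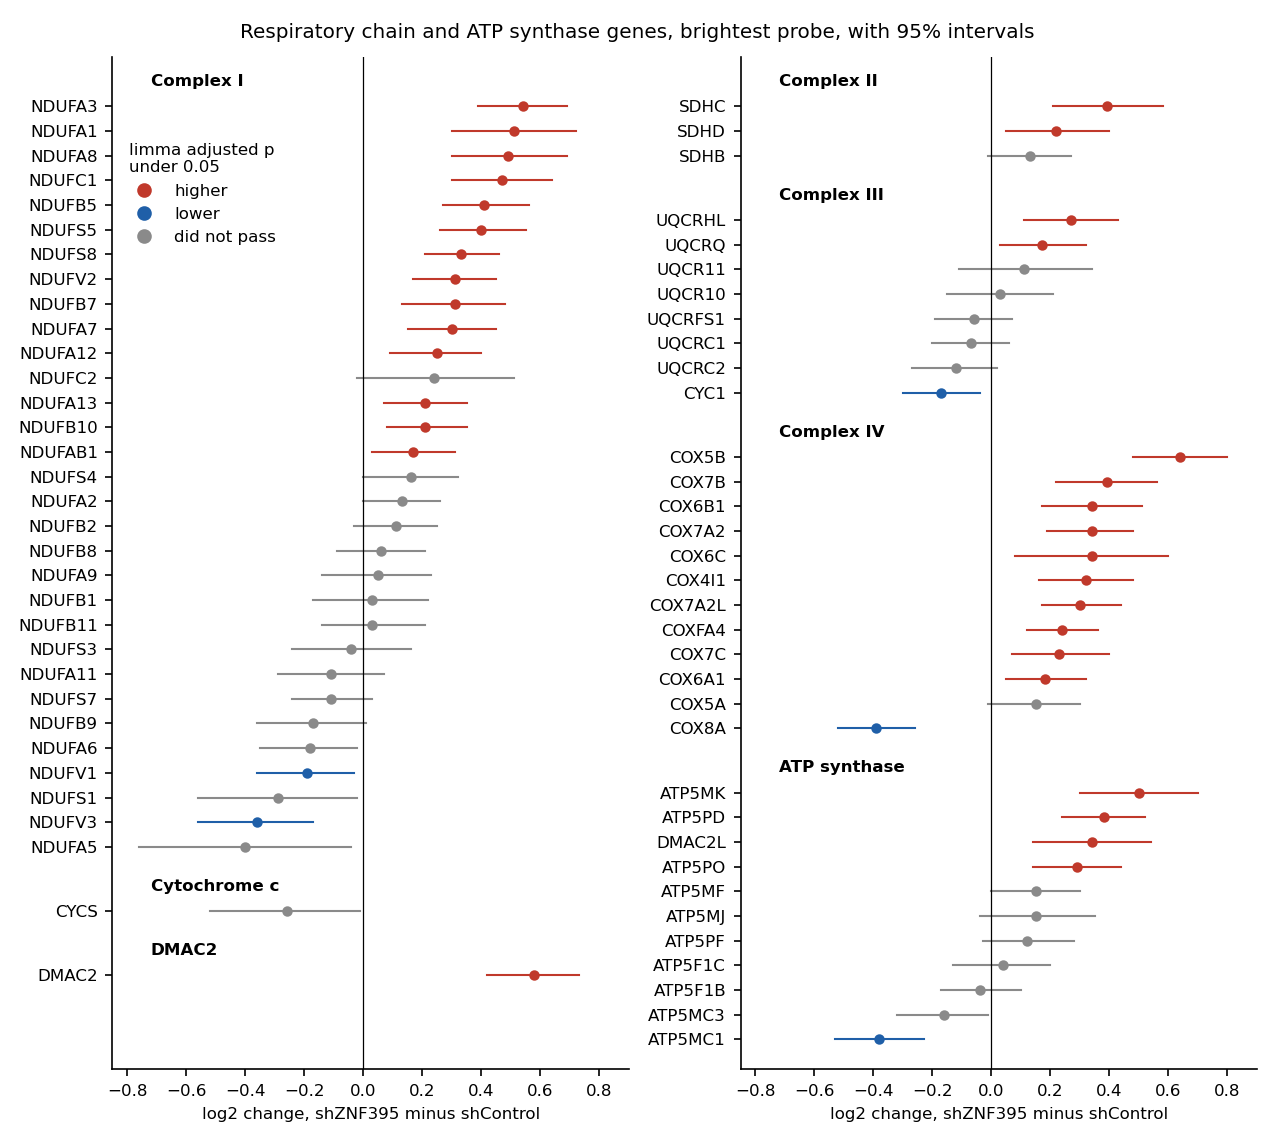
Change of each of the 67 detected genes by complex (x axis, difference of mean normalized log2 signal, shZNF395 minus shControl, n = 4 arrays each); points are limma estimates and lines their 95% intervals. Rises (red) outnumber falls (blue) by 33 to 5, and complex IV holds 10 rises among its 12 genes. Of all detected probes, 25.3% were higher and 30.0% lower.

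The shift stood on every shZNF395 array. The median deviation of the 67 genes from their control means was 0.17, 0.20, 0.12 and 0.16 on shZNF395 arrays 1 to 4, and -0.03, 0.02, 0.03 and -0.02 on shControl arrays 1 to 4. The lowest shZNF395 array lay above the highest control array. Array 3 of shZNF395 was the nearest to the controls, and it was also the array of its group with the most detected probes, 17191 against 16834 to 16882. Without it, 34 genes were higher and 8 lower, with a median change of 0.19. Without both arrays numbered 3, 37 were higher and 9 lower, and without shControl 4 or without shZNF395 2, 3 were lower.

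Complex I, the NADH dehydrogenase and the largest of the complexes, had 31 of its 36 reported genes detected. Of these, 14 were higher, 2 lower and 15 did not pass. Their median change was 0.16. NDUFA3, a small accessory subunit of the membrane arm, had log2 signals of 10.14, 10.23, 10.21 and 10.10 in shControl and 10.64, 10.78, 10.62 and 10.79 in shZNF395. The groups were far apart for their spread, and NDUFA3 rose by 0.54 (SE 0.067, limma adjusted p = 6.08e-05), or 1.45-fold. NDUFA1, an accessory subunit of the membrane arm that is needed for assembly, lay between 11.29 and 11.62 in shControl and between 11.72 and 12.07 in shZNF395, and rose by 0.51 (adjusted p = 0.000907). NDUFA8, which faces the intermembrane space, lay between 11.48 and 11.79 in shControl and between 11.92 and 12.18 in shZNF395, and rose by 0.49 (adjusted p = 0.000756). For NDUFA1 and NDUFA8 the highest control array and the lowest shZNF395 array were both replicate 3, and their values came close without overlapping.

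The other 9 accessory subunits that rose were NDUFC1 (0.47), NDUFB5 (0.41), NDUFS5 (0.40), NDUFB7 (0.31), NDUFA7 (0.30), NDUFA12 (0.25), NDUFA13 (0.21), NDUFB10 (0.21) and NDUFAB1 (0.17), the last of which is also the mitochondrial acyl carrier protein. Against these, NDUFV3, an accessory subunit beside the NADH-binding part, had log2 signals of 6.45, 6.39, 6.36 and 6.42 in shControl and 6.14, 5.99, 6.22 and 5.80 in shZNF395. It fell by 0.36 (SE 0.088, limma adjusted p = 0.00508) with no overlap, though its other, dimmer probe gave -0.10 and did not pass (adjusted p = 0.288). Accessory subunits that did not pass were NDUFC2 (0.24), NDUFS4 (0.16), NDUFA2 (0.13), NDUFB2 (0.11), NDUFB8 (0.06), NDUFA9 (0.05), NDUFB1 (0.03), NDUFB11 (0.03), NDUFA11 (-0.11), NDUFB9 (-0.17), NDUFA6 (-0.18) and NDUFA5 (-0.40). NDUFA5 was dim and uneven, between 5.13 and 6.04 on the shZNF395 arrays, and its 95% interval ran from -0.76 to -0.04.

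Of the core subunits of complex I, which carry the flavin and the iron-sulfur clusters from NADH to ubiquinone, 6 are reported, and they did not move in 1 direction. NDUFV1, which binds NADH and the flavin, had log2 signals of 10.43, 10.54, 10.47 and 10.51 in shControl and 10.23, 10.27, 10.48 and 10.20 in shZNF395. Array 3 of shZNF395 lay within the controls, and the fall of 0.19 passed narrowly (limma adjusted p = 0.0442) and was lost when any array but that one was left out (adjusted p up to 0.116). NDUFS8 and NDUFV2, both iron-sulfur subunits, rose by 0.33 (adjusted p = 0.000526) and 0.31 (adjusted p = 0.00183), with no overlap. NDUFS3 (-0.04), NDUFS7 (-0.11) and NDUFS1 (-0.29) did not pass. The NDUFS1 probe was dim and detected on 3 shControl and 1 shZNF395 arrays, so it was kept mainly through the group where it is high. Its value enters the medians of the core genes given below.

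NDUFA3 had the highest log2 change of complex I, and its promoter is shown as that of the largest rise of this complex. The promoter of NDUFV3, the largest fall past the test, held none of the motif letters searched for here and is not printed. The promoter of NDUFA3 follows. It is taken from RefSeq (GRCh38.p14), 250 bases before to 30 after the gene's start, at chr19:54102605-54102884 on the plus strand. Capitals mark the letters AAGATGG, the core of the motif of the transcription factor YY1, read on either strand.
NDUFA3: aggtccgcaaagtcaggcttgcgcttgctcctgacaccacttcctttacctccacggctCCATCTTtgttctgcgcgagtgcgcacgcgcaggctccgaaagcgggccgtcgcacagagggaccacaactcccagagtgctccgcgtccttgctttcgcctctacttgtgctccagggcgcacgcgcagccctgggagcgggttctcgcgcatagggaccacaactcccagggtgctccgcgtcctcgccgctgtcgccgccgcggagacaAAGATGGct

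Complex II, succinate dehydrogenase, joins the citric acid cycle to the chain, and 3 of its 4 genes were detected. Its membrane anchors SDHC and SDHD, which hold the ubiquinone site, both rose. SDHC had log2 signals of 9.89, 9.72, 9.71 and 9.64 in shControl and 10.14, 10.26, 9.93 and 10.19 in shZNF395, and rose by 0.39 (SE 0.084, limma adjusted p = 0.0024). Its other probe also gave 0.39 (adjusted p = 0.00572), and the groups did not overlap on either probe. SDHD had 10.47, 10.67, 10.53 and 10.56 in shControl and 10.79, 10.97, 10.66 and 10.72 in shZNF395, where array 3 fell just under the highest control. It rose by 0.22 (SE 0.079, adjusted p = 0.0328), a call that was lost without shControl 1, 3 or 4 or without shZNF395 1 or 2 (adjusted p up to 0.0896). The iron-sulfur subunit SDHB had a change of 0.13 and did not pass (adjusted p = 0.106).

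Complex III, the cytochrome bc1 complex, had 8 of its 10 genes detected and the least shift of the complexes, with 2 higher, 1 lower and a median change of -0.01. CYC1, which encodes the haem-bearing cytochrome c1, had log2 signals of 11.71, 11.74, 11.81 and 11.77 in shControl and 11.62, 11.55, 11.63 and 11.55 in shZNF395. The groups were apart by a narrow margin, and CYC1 fell by 0.17 (SE 0.057, limma adjusted p = 0.0258). The call was lost without shControl 3 or 4 or without shZNF395 2 or 4 (adjusted p up to 0.0625). UQCRHL, a near-identical copy of the hinge protein gene UQCRH, lay between 12.86 and 13.07 in shControl and between 13.14 and 13.34 in shZNF395, and rose by 0.27 (adjusted p = 0.00798). Whether its probe reads UQCRHL or UQCRH was not tested. UQCRQ, a small subunit, had 12.89, 13.10, 13.04 and 12.92 in shControl and 13.15, 13.21, 13.10 and 13.18 in shZNF395, with array 3 level with the highest control. It rose by 0.17 (adjusted p = 0.0469), and the call was lost without shControl 1, 3 or 4 or without shZNF395 1, 2 or 4 (adjusted p up to 0.131). The Rieske protein gene UQCRFS1 (-0.06), the core proteins UQCRC1 (-0.07) and UQCRC2 (-0.12), and the small subunits UQCR10 (0.03) and UQCR11 (0.11) did not pass. CYCS, the cytochrome c that carries electrons from complex III to complex IV, had a change of -0.26 on a dim probe and did not pass (adjusted p = 0.075).

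Of the 19 genes of complex IV, cytochrome c oxidase, 12 were detected, and 10 of these were higher, 1 was lower and 1 did not pass. The number higher was 7 to 9 with 1 array left out at a time, and 7 to 11 over all alternatives tried. The median change was 0.31. COX5B, a nuclear subunit on the matrix side, had log2 signals of 10.77, 10.99, 10.96 and 10.82 in shControl and 11.58, 11.53, 11.41 and 11.56 in shZNF395. Every shZNF395 array was well above every control, and COX5B rose by 0.64 (SE 0.072, 95% interval 0.48 to 0.80, limma adjusted p = 3.35e-05), or 1.55-fold. Leaving out each array in turn kept its change between 0.60 and 0.67. RefSeq lists 8 pseudogenes named after COX5B, and whether the probe also reads transcripts of those copies was not tested. The authors' deposited table gives 0.62 for the entry matched to this probe.

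COX8A, the widely expressed isoform of the smallest subunit, moved the other way. Its log2 signals were 12.70, 12.80, 12.77 and 12.82 in shControl and 12.31, 12.42, 12.43 and 12.37 in shZNF395. The groups were clearly apart, with SDs of 0.050 and 0.053, and COX8A fell by 0.39 (SE 0.060, 95% interval -0.52 to -0.26, limma adjusted p = 0.000267). That is 76.4% of its control signal. The change stayed between -0.41 and -0.33 under all alternatives tried, and RefSeq lists 0 pseudogenes named after it.

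The remaining rises of complex IV ran from 0.18 to 0.39. COX7B, a small membrane subunit, had log2 signals of 11.65, 11.68, 11.66 and 11.43 in shControl and 12.05, 11.90, 11.94 and 12.10 in shZNF395, and rose by 0.39 (limma adjusted p = 0.00144). COX6B1, which lies at the contact between the monomers of the enzyme, lay between 9.93 and 10.14 in shControl and between 10.24 and 10.47 in shZNF395, and rose by 0.34 (adjusted p = 0.00288). COX7A2, the widely expressed isoform of subunit VIIa, lay between 12.21 and 12.35 in shControl and between 12.52 and 12.73 in shZNF395, and rose by 0.34 (adjusted p = 0.00133). Its relative COX7A2L, a factor in joining complexes III and IV into supercomplexes, lay between 11.05 and 11.14 in shControl and between 11.28 and 11.46 in shZNF395, and rose by 0.30 (adjusted p = 0.00181). None of these 4 genes overlapped between the groups. COX6C rose by 0.34, COX4I1 by 0.32, COXFA4 (formerly NDUFA4) by 0.24, COX7C by 0.23 and COX6A1 by 0.18, and COX5A, at 0.15, did not pass (adjusted p = 0.0993). For COX6C (adjusted p = 0.0312) and COX7C (adjusted p = 0.0225), array 3 of shZNF395 lay within the controls. The tissue isoforms COX4I2, COX6A2, COX7A1, COX7B2, COX8C and COXFA4L2 were below detection on all 8 arrays, so no switch between isoforms could be read.

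**Figure D2:**
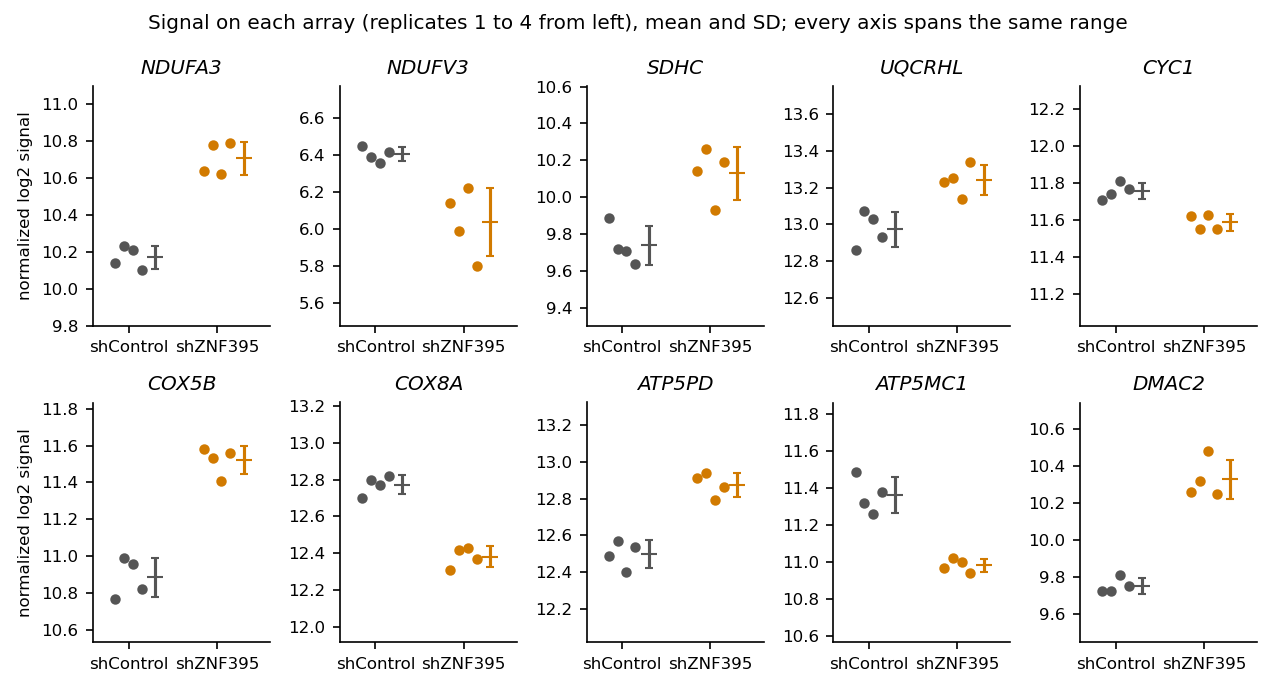
Normalized log2 signal (y axis) of 10 genes on each of the 4 shControl and 4 shZNF395 arrays; points run from replicate 1 to 4 from the left, and bars are the mean and SD. Every axis spans the same range, so the gap of COX5B (0.64 upwards) and that of COX8A (0.39 downwards) can be set against the scatter of the arrays.

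The promoters of COX5B and COX8A are shown because the genes moved in opposite directions within 1 enzyme. Both are from RefSeq (GRCh38.p14), 250 bases before to 30 after the gene's start, on the plus strand, at chr2:97645812-97646091 for COX5B and chr11:63974370-63974649 for COX8A. Capitals mark the letters GCATGCGC (the core of the NRF1 motif) and CCGGAAGT (an ETS or GABP motif), read on either strand. COX5B holds the first once and the second at 2 places, and COX8A holds the second once, on the minus strand.
COX5B: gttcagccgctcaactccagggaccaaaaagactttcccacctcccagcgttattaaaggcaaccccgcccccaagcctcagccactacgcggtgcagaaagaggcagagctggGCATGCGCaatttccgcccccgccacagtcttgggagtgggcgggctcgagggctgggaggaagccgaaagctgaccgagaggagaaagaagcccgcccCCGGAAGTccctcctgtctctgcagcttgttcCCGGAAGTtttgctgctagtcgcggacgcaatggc
COX8A: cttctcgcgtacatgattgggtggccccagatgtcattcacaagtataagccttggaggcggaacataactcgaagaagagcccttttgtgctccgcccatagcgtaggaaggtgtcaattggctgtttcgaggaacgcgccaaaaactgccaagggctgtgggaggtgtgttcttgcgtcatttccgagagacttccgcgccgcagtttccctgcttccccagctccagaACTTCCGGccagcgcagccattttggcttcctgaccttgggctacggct

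The ATP synthase had 11 of its 20 genes detected, and 4 were higher, 1 was lower and 6 did not pass. The median change was 0.15. Subunits of the peripheral stalk, which holds the catalytic head still against the turning ring, made up 2 of the rises. ATP5PD had log2 signals of 12.49, 12.57, 12.40 and 12.54 in shControl and 12.91, 12.94, 12.79 and 12.86 in shZNF395. It rose by 0.38 (SE 0.064, limma adjusted p = 0.000538) with no overlap, and by 0.46 on its other probe (adjusted p = 0.000153). ATP5PO, the subunit that ties the stalk to the head, rose by 0.29 (adjusted p = 0.00468), and ATP5PF, also of the stalk, had 0.12 on its brightest probe and did not pass. Of its other probes, 1 of nearly the same brightness rose by 0.24 (adjusted p = 0.0138) with no overlap, and the dimmest gave 0.15 and did not pass. DMAC2L (formerly ATP5S, coupling factor B) lay between 7.91 and 8.24 in shControl and between 8.28 and 8.52 in shZNF395. It rose by 0.34 (adjusted p = 0.00762) on its brightest probe, and its other probes gave 0.16 and 0.05 and did not pass.

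Among the genes of the proton ring and the small membrane subunits, ATP5MC1 and ATP5MK passed the test. ATP5MC1, which encodes the ring protein and shares its mature product with ATP5MC2 and ATP5MC3, had log2 signals of 11.49, 11.32, 11.26 and 11.38 in shControl and 10.97, 11.02, 11.00 and 10.94 in shZNF395. All shZNF395 arrays lay below all controls, and ATP5MC1 fell by 0.38 (SE 0.066, limma adjusted p = 0.000641), with -0.44 on a dim probe (adjusted p = 0.00176) that was detected on 4 shControl but only 2 shZNF395 arrays. ATP5MC3 had a change of -0.16 and did not pass (adjusted p = 0.0689), and the paired ATP5MC2 probe was below detection. ATP5MK, a small membrane subunit that takes part in joining the enzyme into dimers, had 5.60, 5.54, 5.93 and 5.57 in shControl and 6.17, 6.22, 6.04 and 6.21 in shZNF395, near the low end of the scale. It rose by 0.50 (SE 0.092, adjusted p = 0.000854), and between 0.28 and 0.63 under the alternatives. The authors' deposited table gives 0.19 for it, on a scale that narrows differences at low signal. The small membrane subunits ATP5MF (0.15, adjusted p = 0.0743) and ATP5MJ (0.15, adjusted p = 0.158) did not pass. Of the catalytic head, ATP5F1B had a change of -0.04 (95% interval -0.17 to 0.10) and ATP5F1C of 0.04 (95% interval -0.13 to 0.20), and neither passed.

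The promoters of ATP5MK and ATP5MC1 are shown as those of a rise and a fall within the ATP synthase. Both are from RefSeq (GRCh38.p14) over the same span of bases, at chr10:103396446-103396725 on the minus strand for ATP5MK and chr17:48892537-48892816 on the plus strand for ATP5MC1. Capitals mark CCGGAAGT and its core CCGGAAG, read on either strand, and none of the searched letters stood in the window of ATP5MC1.
ATP5MK: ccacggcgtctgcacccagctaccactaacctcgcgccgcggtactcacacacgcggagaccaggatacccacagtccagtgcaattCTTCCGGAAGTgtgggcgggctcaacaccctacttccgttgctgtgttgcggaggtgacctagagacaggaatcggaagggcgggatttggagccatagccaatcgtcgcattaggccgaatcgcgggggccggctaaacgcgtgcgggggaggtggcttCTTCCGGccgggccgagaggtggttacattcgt
ATP5MC1: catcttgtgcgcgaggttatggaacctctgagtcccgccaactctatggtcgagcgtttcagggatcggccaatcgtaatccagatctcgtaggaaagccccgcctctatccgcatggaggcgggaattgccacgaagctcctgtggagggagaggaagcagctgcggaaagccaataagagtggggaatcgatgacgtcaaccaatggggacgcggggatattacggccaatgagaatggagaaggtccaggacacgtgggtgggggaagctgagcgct

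DMAC2 entered through its former name ATP5SL, but it is known for assembly of the distal membrane arm of complex I and is no subunit of the ATP synthase. Its log2 signals were 9.72, 9.72, 9.81 and 9.75 in shControl and 10.26, 10.32, 10.48 and 10.25 in shZNF395. The groups were far apart, and DMAC2 rose by 0.58 (SE 0.068, limma adjusted p = 4.43e-05), or 1.49-fold. It had the highest change after COX5B among the 67 genes.

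Set out by kind of subunit instead of by complex, the rises stood mostly outside the core. The division into 17 core or catalytic genes and 74 others was made after the values had been seen, so it carries no test. Other divisions are possible. Here the core proteins UQCRC1 (-0.07) and UQCRC2 (-0.12) of complex III were put in the core. The membrane anchors SDHC (0.39) and SDHD (0.22), which hold the ubiquinone site, and CYCS (-0.26) were put among the others. Of the 13 core or catalytic genes detected, 2 were higher (15.4%), 2 lower (15.4%) and 9 did not pass, and the median change was -0.06. Of the 54 other genes detected, 31 were higher (57.4%), 3 lower (5.56%) and 20 did not pass, and the median change was 0.22. Among all detected probes, 25.3% were higher and 30.0% lower. Within complex I, the core genes had a median of -0.07 and the accessory genes of 0.17. The contrast in calls was smaller there, with 2 of 6 core genes (33.3%) and 12 of 25 accessory genes (48.0%) higher. The median deviation of the core genes from their control means was -0.02, -0.02, -0.02 and -0.09 on the 4 shZNF395 arrays, and that of the others 0.20, 0.27, 0.18 and 0.20. Both kinds were bright on the array, with median mean log2 signals of 11.60 for the core and 11.22 for the others. The catalytic subunits of complex IV are encoded by mitochondrial DNA, so the core holds no gene of that complex. Complex IV gave 10 of the 31 rises among the other genes. Of the 67 genes, 40 have at least 1 RefSeq pseudogene named after them.

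**Figure D3:**
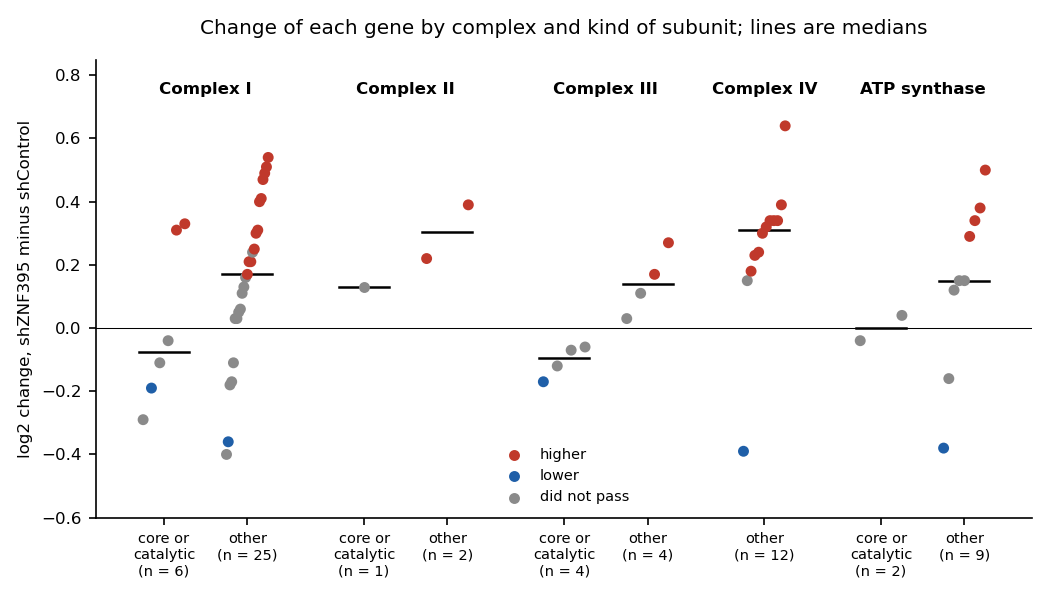
Change of each detected gene (y axis, log2, shZNF395 minus shControl) by complex and by kind of subunit; points are genes, coloured by limma adjusted p under 0.05, and lines are medians. The lines of the core or catalytic genes lie at -0.07 in complex I and at 0.00 in the ATP synthase. Those of the other subunits lie above them, at 0.17 and 0.15. The core line of the ATP synthase rests on 2 genes.

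The remaining 24 genes were not counted. Besides the isoforms named above and ATP5MC2, NDUFS6 was paired with a probe but was below detection. ATP5F1E and ATP5MGL were not found among the named entries, and the entries of 14 genes matched no single probe. For some of these, and for a further UQCR10 entry, the authors' fold change matched the mean of exactly 1 pair of probes: 10 entries of 16 searched, where 0.84 matches in all would arise by chance. Read on both probes of the pair, UQCRH rose by 0.30 and 0.35 and ATP5ME by 0.40 and 0.49. ATP5MG (0.10 and 0.32), NDUFB6 (0.15 and 0.23) and UQCR10 (0.19 and 0.24) rose on 1 probe only, and NDUFA10 (-0.12 and -0.39) fell on 1 probe only. SDHA (-0.19 and 0.04) and ATP5F1A (-0.10 and -0.04), both catalytic, did not pass on either probe. ATP5F1D, also of the catalytic head, had -0.16 on its brighter probe, which did not pass, and 0.38 on the other, which did. ATP5IF1, the inhibitor of the ATP synthase, rose by 0.62 on its brighter probe and fell by 0.27 on the other, so no direction is given for the gene. With these genes added, 37 were higher and 5 lower, an alternative chosen after seeing the data. It reads each added gene by its brighter probe, and so counts ATP5IF1 as higher although its probes passed in opposite directions.

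Neighbouring mitochondrial gene lists, which were also put together with earlier results of these data known, had medians nearer to that of all detected probes or below it. Their counts stand beside 25.3% higher and 30.0% lower of all detected probes, and no list was tested as a set. Of the assembly factors of the complexes, 39 of 56 were measured, and 13 were higher, 7 lower and 19 did not pass, and the median change was 0.09. COX17, a copper chaperone for complex IV, rose by 0.57 (limma adjusted p = 4.99e-05) and UQCC1, an assembly factor of complex III, by 0.53. UQCC3, of the same complex, fell by 0.62 and TMEM186, an assembly factor of complex I, by 0.49. Of the citric acid cycle and pyruvate enzymes, 15 of 18 were measured, with 2 higher, 2 lower and a median change of 0.03. Pyruvate carboxylase (PC) rose by 0.72 and IDH3B by 0.32, while DLAT of the pyruvate dehydrogenase complex fell by 0.38 and IDH3A by 0.25.

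Regulators of mitochondrial biogenesis and of mitochondrial transcription had the lowest median, -0.23, with 3 higher and 6 lower of 12 measured of 21. Their share of rises was near the 25.3% of all detected probes, of which 30.0% were lower. PPARGC1A, the coactivator PGC-1alpha, had a mean log2 signal of 6.47 ± 0.17 (SD, n = 4) in shControl and 7.38 ± 0.13 (SD, n = 4) in shZNF395, with no overlap. It rose by 0.91 (SE 0.095, limma adjusted p = 1.8e-05), and its partner receptor gene ESRRA rose by 0.51 (adjusted p = 0.000909). LRPPRC, which stabilizes mitochondrial messenger RNAs, fell by 0.66 (adjusted p = 2.51e-05) and PPRC1, a coactivator related to PGC-1alpha, by 0.60 (adjusted p = 2.79e-05). The other regulators past the test were GABPB1, a subunit gene of GABP (-0.59), TWNK (-0.58), TFAM (-0.34), POLG (-0.34) and POLRMT (0.31). Of the ubiquinone synthesis genes and membrane carriers, 20 of 26 were measured, with 4 higher, 3 lower and a median of -0.07. SQOR, which feeds electrons from sulfide to ubiquinone, rose by 1.56 (adjusted p = 2.46e-07) and ETFB, a subunit of the electron transfer flavoprotein, by 1.21 (adjusted p = 4.01e-07). COQ8A, of ubiquinone synthesis, fell by 0.58. COQ4 had -0.25 (adjusted p = 0.0408) on a dim probe detected on 4 shControl and 1 shZNF395 arrays, so it was kept through the group where it is high, and with detection required on all 8 arrays 2 genes of the list were lower.

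**Figure D4:**
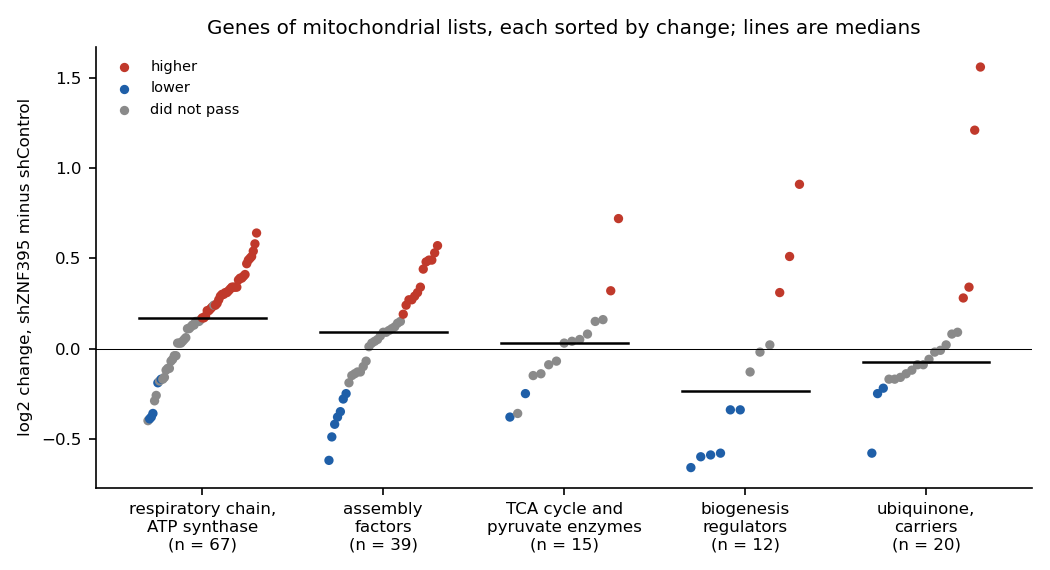
Change of each measured gene (y axis, log2, shZNF395 minus shControl) in the 67 respiratory chain and ATP synthase genes and in 4 neighbouring mitochondrial lists; points are genes sorted by change within a list and coloured by limma adjusted p under 0.05, and lines are medians. The medians run from -0.23 for the regulators of biogenesis to 0.17 for the respiratory chain and ATP synthase genes, and SQOR at 1.56 and ETFB at 1.21 lie above all of the latter.

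Promoters of these genes were also searched for the letters of motifs known from nuclear genes of the respiratory chain. The RefSeq table (GRCh38.p14) holds a promoter, 250 bases before to 50 after the start, for 74 of the 91 genes, and the first entry was used where a symbol had several. On either strand, GCATGCGC (NRF1 core) stood in 18.9% of the 74 promoters and in 3.27% of all 27305 promoters of the table. CCGGAAGT (ETS or GABP) stood in 13.5% and 4.44%, and its core CCGGAAG, which the longer letters contain, in 27.0% and 10.7%. AAGATGGCG (YY1) stood in 10.8% and 1.85%, and its core AAGATGG, likewise contained, in 21.6% and 6.06%. Among detected genes with a promoter, CCGGAAG stood in 11 of 27 that were higher, 1 of 4 that were lower and 5 of 24 that did not pass. The longer CCGGAAGT stood in 6 of 27, 1 of 4 and 2 of 24. AAGATGG stood in 5 of 27, 0 of 4 and 8 of 24, the longer AAGATGGCG in 1 of 27, 0 of 4 and 7 of 24, and GCATGCGC in 4 of 27, 0 of 4 and 6 of 24. These counts describe letters in a window and carry no test.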

How the data were processed

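Gene expression was measured on 8 arrays from 1 cell line, 4 of each hairpin by the labels. Per the file headers, the deposited non-normalized table gives every probe of an array an intensity and a detection p-value. In the deposited series matrix are the authors' normalized intensity values; its linear scale was read from the values, and lumi is the tool that the submitters' processing notes give, with no version. Fold changes in the authors' deposited table, on a scale close to log2, name transcripts but no probes. Probes were therefore paired with transcripts by value. A transform of the series matrix values (an inverse hyperbolic sine with 3 fitted parameters) was averaged by group, and its differences were matched to the deposited fold changes within 1e-09. This gave 1 probe for 33125 of 39747 entries (83.34%), and for 0.0348% after a shift of the values. Gene names came from RefSeq (GRCh38.p14), and 8181 of the 17184 detected probes had one. For the array design, no genome build is given in the sources used here.

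The raw signals went through limma 3.58.1 in R 4.3.3, with normexp (negative controls taken from the detection p-values, offset 16), quantile normalization and log2. Probes with detection p under 0.01 on at least 4 of 8 arrays were kept. The fit (lmFit, eBayes, two-sided, Benjamini-Hochberg over all kept probes) was tested on simulated data. Pairing and counts were done in Python 3.11.15. The members and lists were chosen with earlier results of these data known. Genes named in full were up to 3 largest rises and falls past the test in each complex, every gene with an absolute change of at least 0.5, COX5B, COX8A and the detected isoform relatives. The others are given by counts and their change. The alternatives tried other background corrections, normalizations and filters, the deposited series matrix, other thresholds and moderation, weights for arrays, the replicate block and arrays left out. The number of arrays limits the precision. Of the genes taken by the rule, 1 is not reported here. Protein sequences were not used here.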

Additional observations from a re-analysis of the deposited data

Results flagged for a closer look

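Values of single arrays were checked by the gap of the highest or lowest array to its nearest neighbour, set against the range of its group of 4, and 4 of 46 groups of values stood out, where chance flags about 1 in 20. For ATP5MK, shControl array 3 had a log2 signal of 5.93, while the other controls lay between 5.54 and 5.60. For COX7B, shControl array 4 had 11.43, while the other controls lay between 11.65 and 11.68. In the number of detected probes, shControl array 3 had 16476, the others of its group between 17265 and 17406, and shZNF395 array 3 had 17191, the others of its group between 16834 and 16882. The rises of ATP5MK and COX7B passed the test when each of the 8 arrays was left out in turn.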

How the results depend on the processing

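All 21 named genes that passed kept their direction under the alternatives tried, and 17 of them kept the call under every one. CYC1, NDUFV1, SDHD and UQCRQ each lost it under several alternatives. All 36 losses among the 484 values computed for the 22 named genes fell on these 4. The values also cover ATP5MC3, which did not pass in the main fit. With cyclic loess in place of quantile normalization, the median change of the 67 genes was 0.22, while that of all detected probes moved from -0.05 to 0.00. Without both arrays numbered 3, the median of the 67 genes was 0.21. Genes lower numbered 3, in place of 5, with cyclic loess, with adjusted p under 0.01 and with the replicate number as a block, and 9 with array weights and without both arrays numbered 3. Adjusting over named genes only, 1 probe each, called 4604 of 7737 genes in place of 9512 of 17184 probes, since fewer features were tested. Leaving out 1 array at a time gave 27 to 34 genes higher, 3 to 8 lower, a median of 0.14 to 0.19, 34 to 46 of the probes of these genes called in place of 42, and 8597 to 9679 of all detected probes called. Over all alternatives, 24 to 40 genes were higher and 3 to 9 lower. Of the core or catalytic genes, 0 to 3 were lower.

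With the replicate number as a block, 28 genes were higher and 3 lower, and 8541 of all detected probes were called. The numbers share no litter, batch or day in the labels. Deviations of same-numbered arrays did not go the same way (correlations of -0.107, 0.005, -0.422 and -0.087), so they were not treated as pairs. Those of the arrays numbered 3 (-0.422) tended to go opposite ways. Both also stood out in their groups by detected probes, 16476 for shControl 3 and 17191 for shZNF395 3. For probes near the low end of the scale, such as ATP5MK, NDUFV3, NDUFA5 and CYCS, the size of a change depends on the background correction and offset.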
